A study of Mus musculus with 2 samples.

Results

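The genes described here are the nuclear genes for subunits of respiratory complexes II, III, IV and V, together with cytochrome c, in adrenal glands of female B6CASTF1/J mice aged 2 months. Members were annotated genes whose name starts with Sdh, Uqcr, Atp5 or Cox4 to Cox8, or is Cyc1 or Cycs. Names marked -ps and the Sdhaf assembly factors were left out, and reads of all transcript classes were kept. With a read in either library there were 48 such genes, out of 16888 annotated gene names with a read. The rule matched 50 names in the GENCODE M21 annotation, and Cox7b2 and Cox8c had no read. All 48 had a read in replicate 1 and 46 in replicate 2, where Cox6b2 and Cox6c2 had none. Not every name the rule takes is a subunit. Cox6c2 is annotated as a processed pseudogene, and Atp5s, which RefSeq names Dmac2l, is not a subunit of the ATP synthase.

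Long-read RNA sequencing, in which a read can span a transcript from end to end, was done on 2 libraries of 1 group. The labels number them as biological replicates 1 and 2. No treatment, genotype other than the strain name or second condition is given. Per the labels both libraries come from the same donor identifier, while the tissue samples are numbered 3 and 4 and both library names carry the number 3. An RNA input of 1 µg is given for replicate 1 only. All p-values set one library against the other, so what they measure may be technical, and no difference has a replicate check.

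The respiratory chain hands electrons from nutrients to oxygen and pumps protons across the inner mitochondrial membrane. Complex II passes electrons from succinate to ubiquinone, complex III passes them on to cytochrome c, and complex IV passes them to oxygen. Complex V, the ATP synthase, lets protons flow back and makes ATP. Most subunits are encoded in the nucleus, and a few of complexes III, IV and V are encoded in the mitochondrial genome. In the adrenal cortex, mitochondria also house enzymes of steroid synthesis.

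Gene levels are given as CPM, reads scaled to a library of 1000000 reads of annotated nuclear genes. There were 1209457 such reads in replicate 1 and 502655 in replicate 2. Each read is counted once whatever its length, so CPM is not divided by transcript length. Whether the recovery of a transcript depends on its length was not tested. Ratios between genes below are therefore ratios of reads and may not be those of molecules. Detection required 3 or more reads per library. Where no read was found, the level could still reach 2.48 CPM (replicate 1) or 5.97 CPM (replicate 2), by counting error. Values with ± are means and SDs of both libraries (n = 2). The 4 marker genes of the adrenal cortex were all detected and summed to 30806 and 31035 CPM, and the 4 of the medulla summed to 6231 and 4333 CPM. Markers of other tissues were also read. All 5 brown fat markers were detected and summed to 935.1 CPM in replicate 1, against 1582 in replicate 2, and 3 of 4 white fat markers were detected, with sums of 893.8 and 935 CPM. Skeletal muscle markers summed to 2.48 and 0 CPM, and none of the heart or testis markers had a read.

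Together the members held 31093 reads in replicate 1 and 10892 in replicate 2, which is 2.571% and 2.167% of annotated nuclear reads, or 23689 ± 2856 CPM. Complex V had the highest sum, at 9958 ± 1040 CPM, followed by complex IV at 5833 ± 1387, complex III at 4968 ± 214 and complex II at 2680 ± 225 CPM. Of the 48 genes 44 were detected. The members not detected were Cox6a2, Cox4i2, Cox6b2 and Cox6c2. The reads were unevenly spread: the 2 most abundant members, Atp5b and Atp5a1, held 23% of member reads in replicate 1 and 26% in replicate 2, and the 10 most abundant held 56.2% and 61.2%. The order of levels was similar in the libraries, with a correlation of log2 reads of 0.96 and a rank correlation of 0.924 over the 44 detected members. This is across genes of the same libraries, which are not independent replicates.

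**Figure D1:**
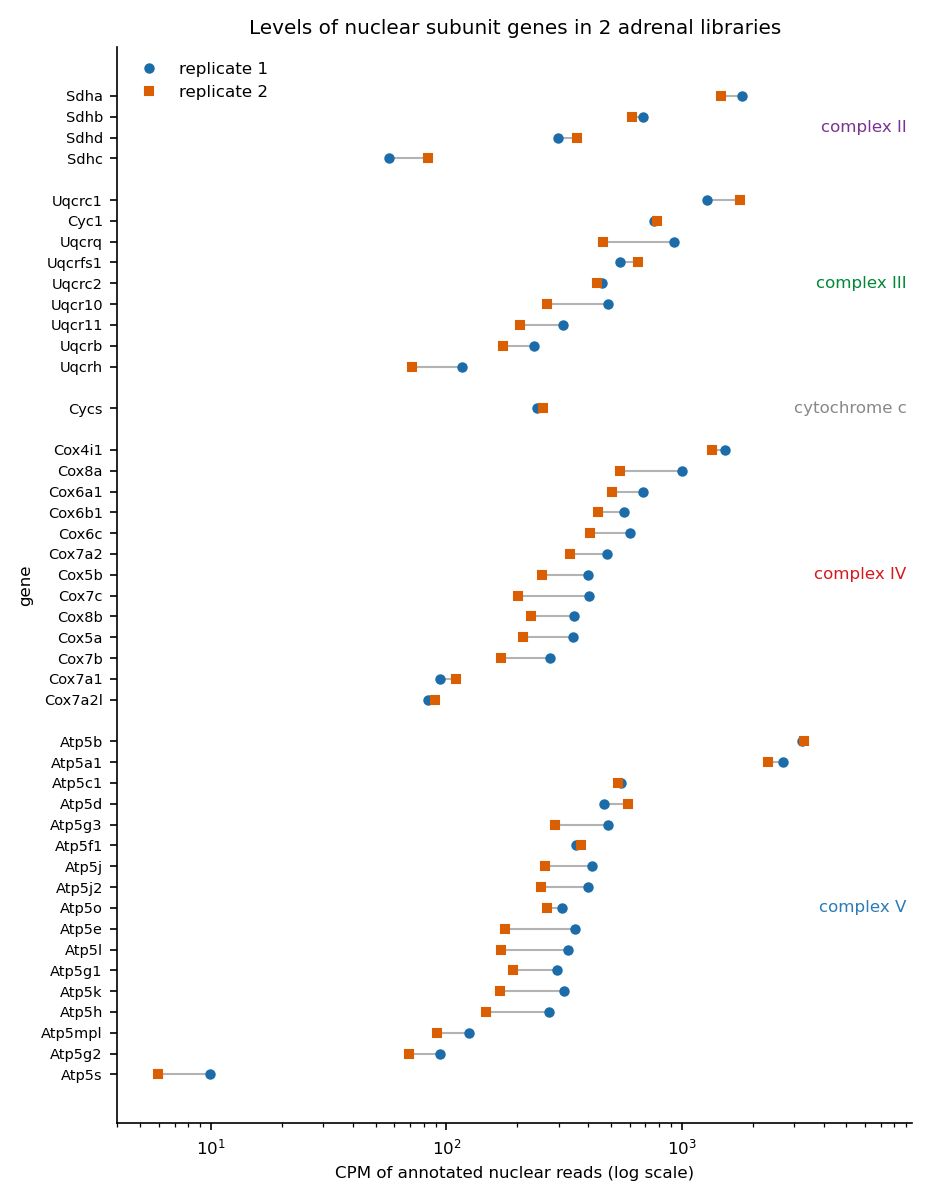
CPM of annotated nuclear reads on a log axis for the 44 detected members, grouped by complex and ordered by mean, with a circle for replicate 1 and a square for replicate 2. Atp5b is highest in both libraries, and most small subunits of complexes III, IV and V lie further left in replicate 2.

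Complex II, succinate dehydrogenase, has a catalytic pair and a membrane anchor, and its 4 genes stood at very different levels. Sdha, the flavoprotein that oxidises succinate (chromosome 13, 74322254 to 74350280 of mm10), had 1801 CPM in replicate 1 and 1462 in replicate 2. Sdhb, the iron-sulfur subunit, had 683.8 and 614.7 CPM. Of the anchor subunits that bind ubiquinone, Sdhd had 296.8 and 360.1 CPM and Sdhc had 57.1 and 83.6 CPM. The order Sdha, Sdhb, Sdhd, Sdhc was the same in both libraries, with no overlap of neighbours. Sdha had 2.51 ± 0.18 reads per Sdhb read, Sdhd had 0.51 ± 0.107 and Sdhc had 0.11 ± 0.0371, although the subunits are joined in equal numbers in the enzyme. With 69 and 42 reads, Sdhc had the lowest mean level of the detected subunits of the 4 complexes. It was the lowest in replicate 1 only, since Atp5g2 and Uqcrh were lower in replicate 2, at 69.6 and 71.6 CPM.

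A new splice form of Sdhb was among the most frequent new transcripts of the members. In 51 reads of replicate 1 and 14 of replicate 2 (5.35 ± 1.16% of Sdhb reads), exon 2 began 6 bases further in, at an acceptor absent from M21. The skipped bases lie in the coding part and keep the reading frame. The same kind of shift, into the exon at an acceptor, was found in Sdha with 3 bases (7 and 5 reads), in Atp5b with 4 bases (6 and 3 reads) and in Atp5j with 5 bases (36 and 7 reads, 6.25 ± 1.34%). The Sdha shift also keeps the frame, that of Atp5b does not, and that of Atp5j lies just before the coding part. These 4 junctions are shown to let the skipped bases be read. Capitals mark the bases that the new form skips, with 12 bases of exon on either side from the M21 transcript.
Sdhb (chromosome 4, 140966495 to 140966500, + strand): gtcggcctgcagTTTCAGgcctgtcgaggg
Sdha (chromosome 13, 74328413 to 74328415, - strand): cttgcaggcctgGAGataaagttcctt
Atp5b (chromosome 10, 128083892 to 128083895, + strand): gggttcatcctgCCAGagactatgcggc
Atp5j (chromosome 16, 84831503 to 84831507, - strand): actcagtgcaagTACAGagactcagccat
In 4 of 4 junctions the skipped bases end in AG, the letters that end nearly all introns. In all there were 7 new transcripts of members with at least 3 reads in each library, against 1623 for all annotated genes. The other 3 were an Atp5j form with its first splice donor moved by 47 bases (25 and 9 reads) and new combinations of known sites in Atp5b (9 and 6 reads) and Cyc1 (8 and 3 reads). The mouse cross carries alleles of both parents, and reads of the 2 alleles were not told apart here.

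Complex III takes electrons from ubiquinol. Uqcrc1, a core protein (chromosome 9, 108936633 to 108949623), had 1278 CPM in replicate 1 and 1767 in replicate 2, the highest level of the complex in both. Its partner Uqcrc2 had 458.9 and 435.7 CPM, so Uqcrc1 had 3.42 ± 0.897 reads per Uqcrc2 read. Of the subunits that carry electrons, Cyc1, which is cytochrome c1, had 764 and 783.8 CPM, and Uqcrfs1, the Rieske iron-sulfur protein, had 544.9 and 648.6 CPM. Cyc1 and Uqcrfs1 did not pass the test between libraries described below (adjusted p = 0.876 and 0.0569, Fisher's exact test). Cycs, the mobile carrier cytochrome c, had 243.1 and 256.6 CPM, and Cyc1 had 3.1 ± 0.0626 reads per Cycs read.

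The 5 small subunits of complex III ranged from Uqcrq, known as a ubiquinone-binding protein, at 693.5 ± 325 CPM to Uqcrh, the hinge protein, at 94.1 ± 31.8 CPM. Uqcr10 had 377 ± 153 CPM, Uqcr11 258.7 ± 76.1 and Uqcrb 204.4 ± 44.2. Each was lower in replicate 2, and their order was the same in both libraries. Many Uqcrq reads had no splice junction. Incomplete models of a single exon held 365 of 1117 reads in replicate 1 (32.7%) and 33 of 233 in replicate 2 (14.2%). Over all annotated nuclear genes such reads were also more frequent in replicate 1, at 1.72% against 0.746% in replicate 2. The lower share in replicate 2 is therefore not particular to Uqcrq.

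Complex IV, cytochrome c oxidase, has its core encoded in mitochondria and a coat of nuclear subunits. The 10 broadly expressed nuclear subunits were all detected, from Cox4i1 at 1434 ± 126 CPM (chromosome 8, 120668222 to 120674207) to Cox7b at 223.6 ± 74.3 CPM. Cox8a had 775.8 ± 323 CPM, Cox6a1 593.3 ± 124, Cox6b1 505.7 ± 90.5, Cox6c 502.6 ± 137 and Cox7a2 407.5 ± 101. Cox5b, Cox7c and Cox5a followed, at 326.6 ± 102, 301.4 ± 142 and 277 ± 93.5 CPM. Although the enzyme holds these subunits in equal numbers, the highest exceeded the lowest by 5.51 times in replicate 1 and by 7.86 times in replicate 2. Cox4i1, the largest nuclear subunit, had 4.44 reads per read of its neighbour Cox5a in replicate 1 and 6.38 in replicate 2.

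Several complex IV subunits have a second gene that is used in particular tissues, and the adrenal libraries used some of these genes and not others. Cox8b, the form of Cox8 known from heart, skeletal muscle and brown fat in the mouse, had 347.3 CPM in replicate 1 and 228.8 in replicate 2. Of Cox8a and Cox8b reads it made up 25.7% (23.6 to 27.9) in replicate 1. In replicate 2 it made up 29.5% (25 to 34.3). Intervals are exact Clopper-Pearson 95% intervals and cover counting error only. Cox7a1, known from heart, skeletal muscle and brown fat, had 94.3 and 109.4 CPM. Its share of Cox7a1 and Cox7a2 reads was 16.5% (13.8 to 19.4) in replicate 1 and 24.6% (19.1 to 30.7) in replicate 2.

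The remaining second genes were at or near the detection limit. Cox6a2, the muscle form of Cox6a, had 10 and 2 reads, or 1.2% (0.576 to 2.19) and 0.781% (0.0948 to 2.79) of Cox6a reads, and 5 of the 10 reads in replicate 1 belonged to the class called genomic, whose reads fit no spliced model. Cox4i2, known from lung, had 1 read in each library, against 1842 and 676 for Cox4i1. Cox6b2, known from testis, had 2 and 0 reads. Cox7a1 and Cox8b were therefore read while Cox6a2, which shares their muscle pattern, was nearly absent. The 5 brown fat markers were read beside them at 935.1 and 1582 CPM. Ucp1, the uncoupling protein of brown fat, had 429.1 and 767.9 CPM, and Cidea had 416.7 and 592.9 CPM. Elovl3 had 63.7 and 191 CPM and was the only marker of that list called between the libraries. Dio2 had 10.8 and 21.9 CPM. Ppara went the other way, with 14.9 and 7.96 CPM, and Cox8b was also lower in replicate 2, at 347.3 and 228.8 CPM. Of the 5 skeletal muscle markers, Ckm, Tnnt3 and Mb had no read in either library. The part of fat tissue in the Cox7a1 and Cox8b reads was not tested. In bulk tissue fewer cells of a type and less RNA per cell cannot be told apart. Cox7a2l, a factor that joins complexes III and IV into larger assemblies, had 86.5 ± 4.25 CPM.

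**Figure D2:**
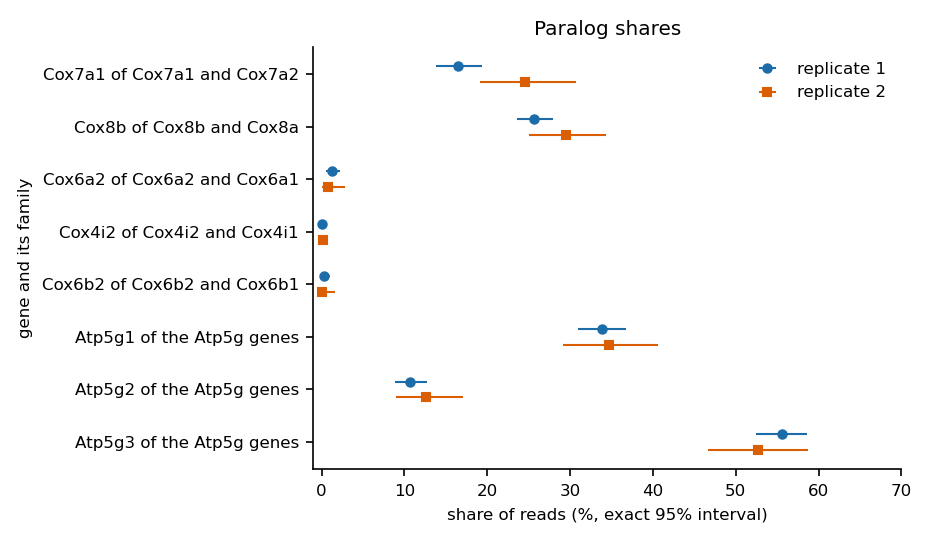
Share of the reads of a gene pair or family that belonged to the named gene, in percent with exact 95% intervals, for replicate 1 (circles) and replicate 2 (squares). Cox8b and Cox7a1 hold 16.5% to 29.5% of their pairs, while the Cox6a2, Cox4i2 and Cox6b2 shares are 1.2% or less.

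In complex V the catalytic head was read most. Atp5b, the beta subunit that makes ATP (chromosome 10, 128083273 to 128090391), had 3230 CPM in replicate 1 and 3300 in replicate 2, rank 17 among all genes by mean. Atp5a1, the alpha subunit, had 2686 and 2326 CPM. Of the central stalk, Atp5c1 (gamma) had 549 and 535.2 CPM, Atp5d (delta) 468 and 592.9, and Atp5e (epsilon) 353.1 and 177.1. Per Atp5c1 read there were 6.02 ± 0.201 reads of Atp5b, 4.62 ± 0.386 of Atp5a1, 0.98 ± 0.181 of Atp5d and 0.487 ± 0.221 of Atp5e. The head holds several alpha and beta subunits for each gamma, delta and epsilon subunit, and the reads of the head exceeded those of the stalk in both libraries.

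The peripheral stalk holds the head still. Atp5f1 had 365.2 ± 12.5 CPM, Atp5j 338 ± 107, Atp5o 288.3 ± 30.7 and Atp5h 210.4 ± 89.4. A second gene identifier named Atp5o had 1 read in replicate 1 and none in replicate 2. The membrane subunits Atp5j2, Atp5l, Atp5k and Atp5mpl had 326 ± 104, 250.1 ± 112, 241.6 ± 103 and 108.2 ± 23.6 CPM. Atp5s had 12 and 3 reads.

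The c ring, which turns as protons pass, is made from 3 genes that encode the same mature protein behind different targeting sequences. Atp5g3 had 388.7 ± 139 CPM, Atp5g1 243.5 ± 74.3 and Atp5g2 81.5 ± 16.8. Their shares were close in the libraries: 55.6% and 52.7% for Atp5g3, 33.8% and 34.7% for Atp5g1, and 10.7% and 12.6% for Atp5g2, with overlapping intervals in each case. For Atp5g2 this closeness rests in part on reads of the class genomic. In annotated transcripts alone, Atp5g2 had 53 and 26 reads, Atp5g1 337 and 87, and Atp5g3 496 and 131. The whole coding parts of the 3 genes are 66.6% to 68.8% identical.

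Some members have near-identical processed copies elsewhere in the genome that were also assigned reads, so the levels of these members are uncertain. Whether such reads come from the member or from the copy was not tested. Copies annotated as pseudogenes and at least 90% identical to a member transcript numbered 72, of 22 members, and 14 of these had a read, 393 reads in replicate 1 and 121 in replicate 2. Atp5g2 was most affected. Its copies Gm10175 and Gm10231, both 100% identical over the match, had 80 and 10 reads and 19 and 31 reads, against 113 and 35 for Atp5g2 itself. Of the Atp5g2 reads, 53 and 8 were also in the class genomic. The copy Gm12338 of Cox7c had 204 and 48 reads, against 486 and 101 for Cox7c. With the copies joined to their parents, Cox7c had 433.9 ± 194 CPM in place of 301.4, and Atp5g2 had 163.2 ± 17 CPM in place of 81.5.

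The libraries were compared gene by gene with Fisher's exact test (two-sided), each gene against the other annotated nuclear reads. A gene was tested when its reads in both libraries came to 10 or more. It was called when its p, after Benjamini-Hochberg adjustment over all genes, was under 0.05 and its levels differed 2-fold. None of the 45 members tested was called, while 9.55% of all 10170 genes were (3.59% lower and 5.96% higher in replicate 2). At an unadjusted p under 0.05, 30 members differed (26 lower and 4 higher in replicate 2), against 28.4% of all genes, and none of the 30 by 2-fold. At an adjusted p under 0.05 and any fold, 25 members were lower in replicate 2, against 8.58% of all genes, and 2 were higher, against 9.34%. Such calls depend on read number, and members had more reads than most genes. With a minimum of 50 reads over both libraries, 43 members and 5519 genes were tested. Of these, 26 members were lower, against 16.1% of genes, and 3 were higher, against 13.4%. The median log2 ratio of the members was -0.44, and that of all genes was -0.06. The ratio was above 0 for 11 members and below 0 for 34.

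The members higher in replicate 2 at any fold were Uqcrc1 and Atp5d. Uqcrc1 had a log2 ratio of 0.47 (counting SE 0.0607, adjusted p = 2.75e-12), and Atp5d one of 0.34 (SE 0.103, adjusted p = 9.76e-03). All 10 broad complex IV subunits were lower, from Cox4i1 at -0.18 to Cox7c at -0.99, with adjusted p from 0.0336 to 6.37e-20. Of the small complex III subunits 4 of 5 were lower, led by Uqcrq at -0.99 (adjusted p = 1.94e-22). In complex V, 9 of 17 tested genes were lower, among them Atp5e at -0.99, Atp5l at -0.94, Atp5h at -0.89 and Atp5k at -0.89. The other lower members were Cox8b at -0.60 and, in complex II, Sdha at -0.30 (SE 0.0615, adjusted p = 1.6e-05). Counting error alone enters these tests, so a small p does not show that mice differ.

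The differences went with transcript length. For the 29 members whose main transcript is shorter than 1000 bases, the median log2 ratio was -0.63, and that of all 984 genes of that length was -0.52. At an adjusted p under 0.05 and any fold, 21 of the 29 members were lower, against 24.1% of the 984 genes. These shares are not matched for read number. At least 100 reads over both libraries were held by 28 of the 29 members and by 384 of the 984 genes. With the 2-fold requirement none of the 29 was called lower, against 9.45%. Among genes of that length with at least 100 reads over both libraries, the median was -0.615 for 28 members and -0.552 for all 384. The 16 members with longer transcripts had a median of -0.002, against -0.013 for all 9186 tested genes of that length. Over the 45 members, log2 length and log2 ratio correlated with Pearson's r = 0.534 and Spearman's rho = 0.491, as a description of these 2 libraries. Over all 10170 tested genes these values were 0.087 and 0.079. The median ratio of all genes was -0.036 from 1000 to 2000 bases and 0.007 from 2000 bases on. Sdhc, with a main transcript of 3171 bases, had the highest ratio, 0.56. It rests on 69 and 42 reads and did not pass (counting SE 0.281, adjusted p = 0.1996, Fisher's exact test). Cox7c, with 540 bases, had the lowest. Uqcrq was nearly as low with an annotated length of 1521 bases. That length is uncertain, since the introns of Uqcrq-201 also lie within those of Uqcrq-203, which has 405 bases. Atp5f1 was assigned a transcript of 407 bases, although nearly all its reads belong to an incomplete form of a longer one. With the trend of the ratio with length and GC content removed over all genes, the members' median became -0.09. Then 6 members were lower at an adjusted p under 0.05 and any fold, against 6.81% of all genes, and 6 were higher, against 8.72%. The 6 lower were Uqcrq, Cox8a, Atp5a1, Sdha, Atp5j and Atp5j2, so Cox8a was the only broad complex IV subunit left. Atp5f1, corrected with the length of 407 bases, was among the 6 higher members. Its log2 ratio went from 0.07 to 0.83, so its place there rests on a length that few of its reads match. No member was called at 2-fold, and 3 of the 25 lower members turned above 0. The 38 tested genes of complex I, named Nduf, had a median of -0.54, with 3 called lower and 0 higher. Of the 4 medulla markers 1 was called lower in replicate 2 (Pnmt) and 2 had a ratio above 0, and of the 5 brown fat markers 1 was called higher (Elovl3) and 4 had a ratio above 0. Their part in these differences was not tested.

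**Figure D3:**
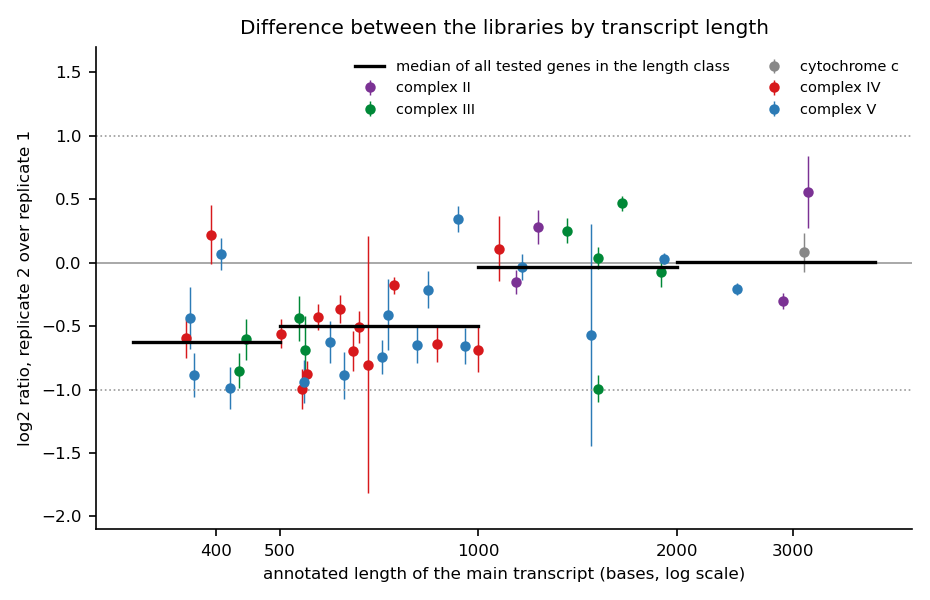
Log2 ratio of replicate 2 over replicate 1 against the annotated length of the main transcript (log axis) for the 45 tested members, coloured by complex, with bars of 1 counting SE. Black lines are medians of all tested genes in 4 length classes, and dotted lines mark 2-fold differences. Of the 29 members under 1000 bases 3 lie above 0, and no member crosses a 2-fold line.

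Most member reads were assigned to an annotated transcript, which does not show that a read spans it from end to end. The share was 89.8% in replicate 1 and 91.9% in replicate 2, against 76.5% and 81.8% over all annotated nuclear genes. Most members are short, and at like length the gap was smaller. For main transcripts under 1000 bases the share was 89.1% and 89.6% in members, against 87% and 87.4% in all genes. Incomplete splice matches, whose introns are only a run of those of an annotated transcript, made up 7.91% and 5.99%. Over all genes they made up 11.6% and 7.08%. Under 1000 bases they were more frequent in members, at 8.02% and 8.09%, against 5.33% and 4.74% in all genes. New combinations of known splice sites made up 0.444% and 0.441%, models with a new splice site 1.13% and 1.18%, and genomic models 0.727% and 0.477%. A member had in most cases a single main transcript. Among the 36 members with at least 50 reads in each library, the main transcript held a median share of 97.97% of reads of annotated and new spliced models, against 93.04% over all 1887 such genes. It held at least 90% in both libraries in 28 members.

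The share of the main transcript differed between the libraries in 2 of the 36 members (Fisher's exact test, adjusted p under 0.05 and at least 10 percentage points), against 0.742% of all genes tested. For Cox4i1, transcript Cox4i1-201 held 1110 of 1813 reads in replicate 1 (61.2%) and 311 of 665 in replicate 2 (46.8%), with an adjusted p of 6.28e-08. The rest was mainly Cox4i1-204, annotated as a retained intron form, with 660 and 338 reads. The introns of Cox4i1-204 are also the last introns of Cox4i1-201, so a read of Cox4i1-201 that starts within exon 3 carries the same introns. Reads of these models cannot be told apart in that case. For Atp5d, transcript Atp5d-201 held 90.8% in replicate 1 and 80.4% in replicate 2, with an adjusted p of 0.00568. Atp5d-203, which adds an exon upstream and has the same coding part, had 32 and 49 reads. The introns of Atp5d-201 lie within those of Atp5d-203. With reads of all classes in the denominator Atp5d was not called, and Cox4i1, Atp5j and Uqcrq were, while 16.6% of all genes tested were called. Over all members, annotated models whose introns lie within a longer coding transcript of the same gene held 6.59% and 7.43% of reads.

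Genes with more than one abundant form were few. Atp5g1 was split between Atp5g1-202 (231 and 61 reads) and Atp5g1-201 (96 and 25), with annotated lengths of 596 and 4715 bases. They share the coding part and differ in the first exon, though not necessarily there alone. Atp5g3 was split between Atp5g3-201 (356 and 95 reads) and Atp5g3-202 (140 and 36), whose first donor sites lie 10 bases apart. Cox6c-203 held 8.21 ± 2.25% of Cox6c reads, and Uqcr10-203, annotated as noncoding, held 6.06 ± 0.859% of Uqcr10 reads.

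The gamma subunit gene Atp5c1 had a form that differs at the end of the protein. Atp5c1-203, with 583 and 225 reads, includes an exon of 37 bases (chromosome 2, 10056770 to 10056806), and Atp5c1-201, with 42 and 33 reads, skips it. Inclusion gives a coding part of 897 bases and skipping gives 894. The ends of both coding parts are shown because they carry the whole coding difference. Capitals mark the coding bases after the splice junction, stop codon included, and small letters the 20 bases of shared exon before it.
Atp5c1-203: atctctggggctgctgctctGGATTAA
Atp5c1-201: atctctggggctgctgctctGTAA
The share of Atp5c1-203 was 91.1% in replicate 1 and 84.6% in replicate 2 of annotated and new spliced reads, which did not pass the test (adjusted p = 0.259).

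**Figure D4:**
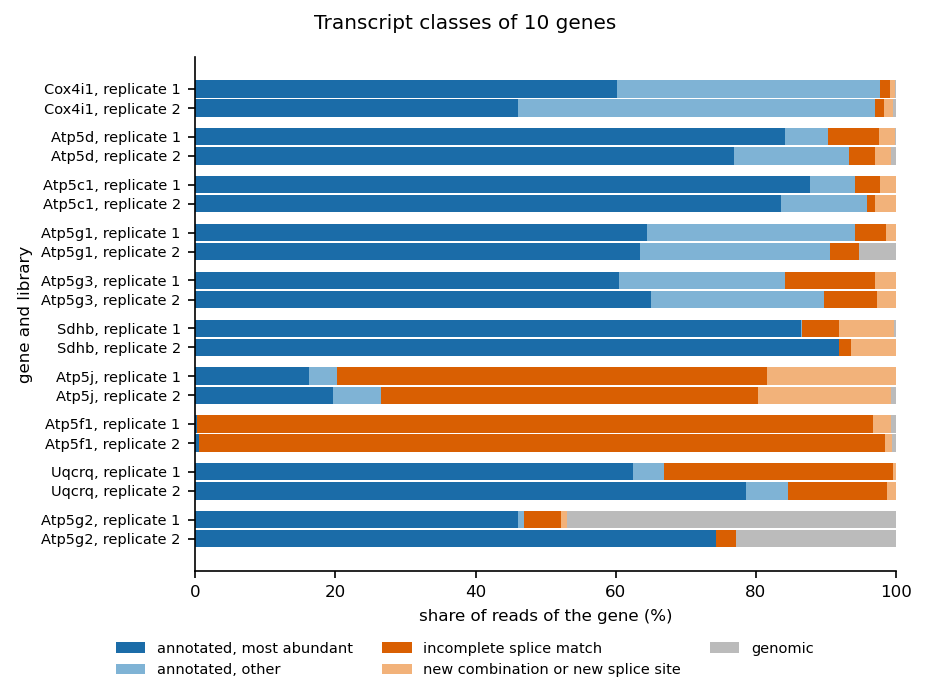
Share of the reads of a gene, in percent, by transcript class for 10 members with divided reads, with a bar for each library. Cox4i1 is split between annotated forms, Atp5f1 and Atp5j consist mainly of incomplete splice matches, and Atp5g2 has many genomic reads.

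Incomplete matches were concentrated in a few genes. In Atp5f1, 404 of 431 reads in replicate 1 (93.7%) and 181 of 188 in replicate 2 (96.3%) lacked the first annotated intron of Atp5f1-201 and kept the other 6. Only 1 read in each library matched an annotated Atp5f1 transcript. In Atp5j, 296 of 500 reads (59.2%) and 61 of 132 (46.2%) likewise lacked the first intron. Both models span the whole coding part. Of all incomplete reads of members, 887 in replicate 1 (36.0%, 34.1 to 38.0) and 306 in replicate 2 (46.9%, 43.0 to 50.8) came from models that do so, and Atp5f1 and Atp5j held 710 and 252 of these. In Atp5b, by contrast, a model of the last 2 exons held 230 and 100 reads (5.96 ± 0.0985%) and kept 1 of 9 introns.

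RefSeq places the start of Atp5f1 (there named Atp5pb) 17 bases upstream of the 5′ end of this model, while the annotated start of Atp5f1-201 lies 853 bases upstream of it. The annotation also has starts near the model: Atp5f1-202 starts at the same base, and Atp5f1-203 starts 30 bases upstream. For Atp5j, RefSeq has starts 144 and 793 bases upstream of the model's end, of which the farther is also the start of Atp5j-201. The 5′ ends of models follow annotated exon ends, so the files do not give where single reads began. The RefSeq windows of 250 bases before to 50 after these starts were searched for short motifs of factors known for genes of the respiratory chain. Both genes have a match to the YY1 motif AAGATGGC, and so does Atp5j2, a membrane subunit. These sites are printed because YY1 motifs often lie at start sites. Capitals mark the match, with up to 10 bases on either side, from RefSeq on GRCm38.p6.
Atp5f1 (chromosome 3, 105959249 to 105959276, - strand, match from 3 bases before the start): tgtgcgagcgGCCATCTTgctcctgccc
Atp5j (chromosome 16, 84835047 to 84835074, - strand, match from 88 bases before the nearer start): aagtgtaggaAAGATGGCggagtcttag
Atp5j2 (chromosome 5, 145191501 to 145191528, - strand, match after the start): ccaggacttcAAGATGGCgtcactcggt
The Atp5f1 match is on the opposite strand, so its letters read as the reverse complement.

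Promoter windows were matched for 36 of the 48 members. Each motif was searched on both strands. The NRF1 core motif, the palindrome printed below with any base at its sixth position, was found in 10 of 36 members (27.8%), against 12.6% of genes tested here and 5.19% of all genes in the table. The strict NRF1 palindrome, whose matches are all matches of the core too, was found in 4 members (11.1%), against 2.53% and 1.07%. An ETS motif, CCGGAAG, was found in 33.3% of members, against 21.8% and 9.93%, and the YY1 motif in 8.33%, against 5.82% and 3.19%. The SP motif GGGCGG was found in 38.9% of members, against 71.4% of genes tested here and 38.2% of all genes. Complex I genes had 21.2% for the NRF1 core, 12.1% for ETS and 21.2% for YY1. These are descriptions of letters in the windows and not of binding. In the 250 bases before the start alone, YY1 matches remained in 2.78% of members. The 4 members with the palindrome were 2 of complex V, 1 of complex IV and 1 of complex III, shown here with 10 bases on either side and the palindrome in capitals.
Atp5g2 (chromosome 15, 102671070 to 102671099, - strand): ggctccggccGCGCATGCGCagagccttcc
Atp5k (chromosome 5, 108434430 to 108434459, - strand): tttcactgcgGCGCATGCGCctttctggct
Cox6a1 (chromosome 5, 115349101 to 115349130, - strand): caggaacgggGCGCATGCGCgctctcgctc
Uqcrc1 (chromosome 9, 108936668 to 108936697, + strand): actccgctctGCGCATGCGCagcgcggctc
The levels of these 4 genes ran from 81.5 CPM for Atp5g2 to 1522 CPM for Uqcrc1.

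**Figure D5:**
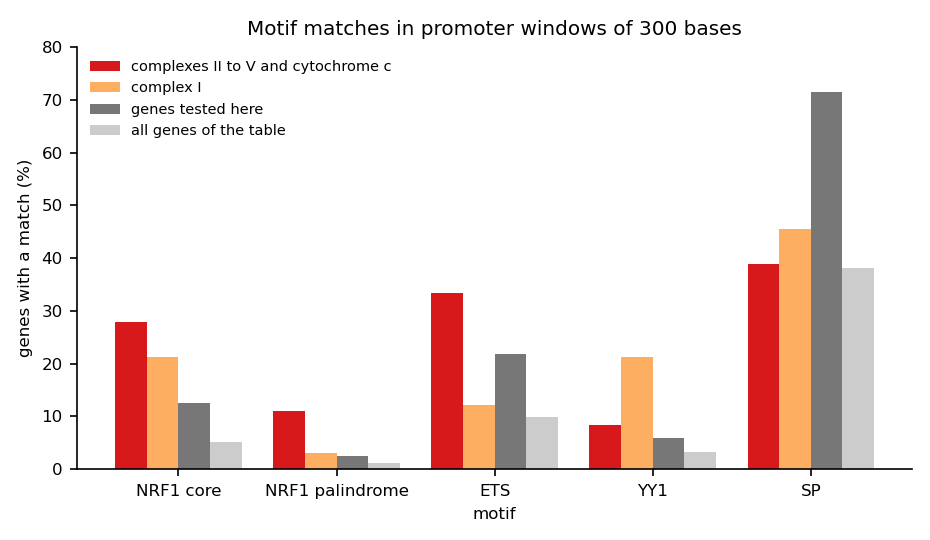
Percent of genes with at least 1 match to each motif in promoter windows of 300 bases, for members, complex I genes, genes tested here and all genes of the RefSeq table. Members have 27.8% for the NRF1 core against 12.6% of genes tested here, and 38.9% for SP against 71.4%.

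Other genes of the pathway were mostly read at lower levels. The factors that assemble complex II were Sdhaf4 at 62.3 ± 34.7 CPM, Sdhaf2 at 60.4 ± 18.7, Sdhaf1 at 24.4 ± 20.4 and Sdhaf3 at 8.6 ± 6.54, and 3 of 4 were detected. Of the 4 tested, Sdhaf1 (log2 ratio -1.84) and Sdhaf4 (-1.17) were called lower in replicate 2, where 3.59% of all genes were. For complex III, 5 of 6 factors were detected, led by Uqcc1 at 169 ± 25.2 CPM, Uqcc2 at 112.9 ± 55.5, Uqcc3 at 68.4 ± 17.9 and Ttc19 at 38.3 ± 14.8. Of 5 tested, Uqcc2 was called lower (-1.03). For complex IV, 20 of 22 factors were detected. The most abundant were Cox14 at 280.9 ± 68.1 CPM, the copper chaperone Cox17 at 162.7 ± 81, Cox15, of heme A synthesis, at 151.8 ± 49.8 and Coa5 at 103.6 ± 3.09. Of 21 tested, Cox17 was called lower (-1.05). Cox10, also of heme A synthesis, was called higher (1.49, adjusted p = 2.95e-03 by Fisher's exact test, with 23 and 27 reads). All 4 factors of complex V were detected, with Tmem70 at 228.4 ± 7.9 CPM, Atpaf2 at 83.2 ± 23, Tmem242 at 54.5 ± 9.5 and Atpaf1 at 49.2 ± 27.4, and Atpaf1 was called lower (-1.16).

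Mitochondrially encoded subunits lie outside the tests of nuclear genes. Scaled to annotated nuclear reads, mt-Co1 had 201.2 ± 24.95 CPM, mt-Cytb 63.6 ± 28.1, mt-Atp6 24.3 ± 0.659 and mt-Co3 15.8 ± 13.9. All mitochondrial genes together held only 713 of 1277310 reads in replicate 1 and 235 of 520388 in replicate 2. Whether such reads were lost in preparation or processing was not tested. These values should therefore not be read as levels beside those of nuclear genes. The gene mt-Atp8 had no read in either library. Of 10 regulators of mitochondrial genes 8 were detected, and none of the 8 tested was called at 2-fold. Nfe2l1 was the most abundant at 531.7 ± 99.3 CPM, followed by Esrra at 93.7 ± 25, Yy1 at 42.3 ± 4.88 and Gabpb1 at 40.6 ± 20.9 CPM. Nrf1, named here for its motif, had 36.8 ± 9.88 CPM.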

How the data were processed

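Adrenal gland RNA of 1 group of 2 libraries was sequenced as long reads. The authors deposited, per library, read counts per transcript model and the models themselves, on mm10 with GENCODE M21, per the file headers and readme files. New models carry the source TALON. The aligner, the TALON version and the sequencing platform: not given in the sources used here. Values deposited by the authors are raw read counts.

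Per annotated gene, reads of every transcript class were added up and scaled over annotated nuclear reads. Tests were two-sided Fisher's exact tests on all genes with Benjamini-Hochberg adjustment. Log2 ratios are of replicate 2 over replicate 1 with 0.5 added reads. New transcripts were matched by introns. Copies were found with BLAST+ 2.17.0, and identity was computed with Biopython 1.88. Python 3.11.15, scipy 1.17.1, R 4.3.3, edgeR 4.0.16 and DESeq2 1.42.0 (scaling only) were used. Alternatives covered scaling, read minimums, added reads, thinning, transcript classes, length and GC content, and, chosen after seeing the data, joined copies. The scripts were tested on simulated counts. Intervals and floors cover counting error only. The M21 models in both files matched the reference in 141862 of 141862 cases.

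Members, lists and tests were chosen with earlier results of these data known. All members were described by role. From the pathway lists the most abundant genes (4 per list) and those called were named, and member transcripts were named as main forms, at 10% or more in both libraries, or when shared and new. Nrf1, Atp5c1-201, Cox6c-203, Uqcr10-203 and the incomplete models were named after their values were seen.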

Additional observations from a re-analysis of the deposited data

How the results depend on the processing

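No paired analysis was possible because the libraries form 1 group. Of 43 alternative values over 12 results, 37 stayed within 1.5 times the count or within the spread used for that result, and 6 did not. The median log2 ratio kept its sign, and the other results are counts, sums or shares, which cannot change sign. The spread for the median was that over members, so -0.09 after the trend removal counted as staying. Leaving out a replicate cannot move a mean of 2 libraries beyond its SD. For the summed CPM and the annotated share those values therefore test nothing. No member was called under TMM or median-of-ratios scaling, other read minimums, 1 added read, the removed length and GC trend, or joined copies. With annotated transcripts only, 3 were called lower (Atp5e, Atp5l, Cox7c), against 4.35% of all genes. Without the genomic class 3 were called lower (Atp5e, Cox7c, Uqcrq), against 3.93%, and with replicate 1 thinned 1 was (Cox7c), against 3.2%. These lie near the 2-fold threshold, with log2 ratios from -0.94 to -0.99 in the test as reported. At an adjusted p under 0.05 and any fold, 25 members were lower in the test as reported. Under TMM scaling, median-of-ratios scaling or no read minimum 23 were, and Cox4i1 and Uqcrh dropped out. With annotated transcripts only, the members summed to 27247 CPM. Without one replicate each, the sum ran from 21669 to 25708 CPM, the detected members from 44 to 45, and the share in annotated transcripts from 89.8% to 91.9%. The median log2 ratio ran from -0.47 to -0.42 under the alternatives other than the trend removal. New transcripts shared by both libraries numbered 48 with at least 1 read in each and 1 with at least 10. With all classes in the denominator, 3 members differed in main transcript share (Atp5j, Cox4i1, Uqcrq). Of these only Cox4i1 was among the 2 members called before, although the count stayed within 1.5 times. Motif shares in the 250 bases before the start were 19.4% for the NRF1 core, 25% for ETS, 2.78% for YY1 and 30.6% for SP. Depth limits the lowest members: Cox4i2, Cox6b2 and Atp5s have too few reads for a difference to be seen.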

Other observations

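Reads of new genes antisense to members were rare. Such models lay opposite 21 members and held 71 reads in replicate 1 and 18 in replicate 2, with 34 of 40 models made of a single exon. The most were opposite Sdhb, with 11 and 2 reads against 827 and 309 reads of Sdhb itself.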
